A study of Rattus norvegicus with 17 samples.

Results

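The genes of MHC class II antigen presentation were followed in the livers of rats with a ligated bile duct, with or without ghrelin. Members were the probe sets annotated to exactly 1 of 9 gene symbols, namely RT1-Ba, RT1-Bb, RT1-Da, RT1-Db1, Cd74, RT1-DMa, RT1-DMb, RT1-DOb and Ciita. There were 14 such probe sets for 8 of the 9 genes, among 20826 probe sets with 1 symbol for 14217 genes in all, and RT1-DOb had no probe set listed to it alone. The ligated ghrelin group held 5 rats operated at week 7 and given recombinant ghrelin at 10 µg per kg per day from a pump under the skin. The ligated saline group held 6 rats with the same ligation and a saline pump, and the sham group held 6 rats with a saline pump whose abdomen was opened but whose bile duct was left intact. All livers were taken at week 9, after 2 weeks of ligation in the ligated groups, and each rat gave 1 Affymetrix Rat Genome 230 2.0 array. Every rat carried a pump, sham rats with ghrelin were not analysed here, and the labels used give no strain, sex or genotype. Ligation of the bile duct stops the flow of bile and is a model of cholestasis with scarring around the ducts, and ghrelin is a peptide hormone made mainly by the stomach.

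Class II molecules are pairs of an alpha and a beta chain that show peptides from endosomes to CD4+ T cells. In the rat, RT1-Da and RT1-Db1 form the D molecule and RT1-Ba and RT1-Bb the B molecule. The invariant chain Cd74 guides new class II molecules to the endosome and fills their groove, RT1-DMa and RT1-DMb form the DM molecule that exchanges its remnant for peptides, and RT1-DOb is a chain of the DO molecule that tempers DM. Transcription of the whole set depends on Ciita, a coactivator that does not bind DNA itself but docks on a complex of RFX, CREB and NF-Y at the X and Y boxes of class II promoters. In the liver, class II is carried mostly by Kupffer cells and other macrophages, dendritic cells, B cells and sinusoidal endothelium, and interferon gamma can induce it in other cells. The class II chains differ in sequence between rat strains.

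The promoters are shown because the X and Y boxes are the shared feature through which Ciita acts. Promoters of 300 bases, from 250 before to 50 after each start, were read from RefSeq (build GRCr8) and were listed for 7 of the 9 genes, without RT1-DMb and Ciita. The X1 box was searched as CNAGNN joined to ACNNNTG, the core of the X2 box as TGACG and the core of the Y box as CCAAT, each on both strands. In the windows below, printed 5′ to 3′ on the gene's strand, capitals mark the X1 box, the X2 core and the Y core (CCAAT or its reverse ATTGG). The windows lie at chr20:4515320-4515385 (+) for RT1-Da, chr20:4560223-4560287 (-) for RT1-Db1, chr20:4576959-4577033 (+) for RT1-Ba, chr20:4604160-4604224 (-) for RT1-Bb, chr18:56526977-56527036 (+) for Cd74, chr20:4712380-4712454 (-) for RT1-DMa and chr20:4627587-4627649 (-) for RT1-DOb.
RT1-Da: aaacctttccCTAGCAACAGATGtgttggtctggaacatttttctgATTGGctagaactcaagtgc
RT1-Db1: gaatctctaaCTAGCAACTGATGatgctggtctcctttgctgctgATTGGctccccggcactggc
RT1-Ba: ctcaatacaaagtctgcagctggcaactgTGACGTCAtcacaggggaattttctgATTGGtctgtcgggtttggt
RT1-Bb: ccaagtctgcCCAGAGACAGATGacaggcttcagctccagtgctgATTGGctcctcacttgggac
Cd74: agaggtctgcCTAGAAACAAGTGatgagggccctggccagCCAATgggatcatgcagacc
RT1-DMa: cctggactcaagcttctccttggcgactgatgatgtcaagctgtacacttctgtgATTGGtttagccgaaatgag
RT1-DOb: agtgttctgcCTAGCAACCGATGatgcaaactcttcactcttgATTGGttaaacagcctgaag

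The X1 box was found in 5 of the 7 promoters (RT1-Da, RT1-Db1, RT1-Bb, Cd74 and RT1-DOb) and in 3.43% of all 33469 promoters of this length. The Y core was found in all 7 and in 37.5% of all promoters. In the 5 promoters with an X1 box, the Y core began 17 to 23 bases after the box ended. A Y core 15 to 25 bases after an X1 box, a range set after this spacing was seen, occurred in 28 of the 33469 promoters (0.0837%), 5 of them these genes. The X2 core was matched in RT1-Ba, on both strands at overlapping positions, and in 21.2% of all promoters. Only exact matches to the searched patterns were counted, so a promoter without a match is not shown to lack the box. These matches describe letters in a window and are not binding data. In the RefSeq annotation 7 of the 9 genes lie on chromosome 20 within a run of 12 protein-coding genes, which also holds RT1-Db2, Tap2, Psmb8, Tap1 and Psmb9, while Cd74 is on chromosome 18 and Ciita on chromosome 10.

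Values are log2 intensities, so a difference of 1 is a doubling. Testing was limited to the 15965 probe sets that rose above the overall median of the table, a log2 value of 3.95, in 5 or more of the arrays. Of the 14 class II probe sets 11 were kept, and these covered all 8 genes. The other three, RT1-Ba 1381593_x_at and 1392334_at and Ciita 1369214_a_at, lay below that level on every array, between 1.75 and 2.67. Arrays of 1 group correlated at r = 0.988 to 0.995 over all probe sets other than controls, kept or not, and none were identical. The median intensity was 15.4 to 16.4 on ligated ghrelin arrays, 16.1 to 17.5 on ligated saline arrays and 14.2 to 14.7 on sham arrays. Setting array medians equal moved the median saline minus sham change of all probe sets to -0.15, and quantile normalization moved it to -0.11, against 0.04 as deposited. Arrays are named by group and a running number, and the labels describe each as a separate rat.

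Class II genes were higher in the ligated saline livers than in sham livers. Of the 11 probe sets tested 8 rose and none fell at an adjusted p under 0.05 (limma), covering Ciita, Cd74, RT1-Da, RT1-Db1, RT1-Ba, RT1-DMa and RT1-DMb. In this comparison 61.5% of all probe sets were called and 34.2% were called higher. The median change of the class II probe sets was 1.76, against 0.04 over all probe sets. In 6 of the 11 the ligated saline and sham arrays did not overlap, with the ligated ones higher, which held for 22.8% of all probe sets. In whole liver, more cells that carry class II and more class II RNA per cell cannot be told apart.

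Ciita, the coactivator of the set, had 6.73 at the lowest, 7.21 at the median and 8.24 at the highest in ligated saline livers. In sham livers its 1379381_at probe set had 3.58, 5.20 and 6.33. All ligated saline arrays lay above all sham arrays, and the lowest sham array was under the filter level. The change was 2.28 ± 0.417 (log2, SE), or 4.85-fold (n = 6 and 6, adjusted p = 0.000168, limma).

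Of the chains of the D molecule, the alpha chain RT1-Da had a lowest, median and highest value of 13.31, 13.74 and 13.99 in ligated saline livers, against 10.78, 11.69 and 12.74 in sham livers. The groups did not overlap, and the change was 2.01 ± 0.292, a 4.03-fold rise (adjusted p = 1.7e-05). The beta chain RT1-Db1 was read by a pair of kept probe sets. The brighter, 1370383_s_at, had 11.66, 11.89 and 12.97 in ligated saline livers and 8.65, 10.03 and 11.43 in sham livers, a change of 2.17 ± 0.436 (adjusted p = 0.0004) without overlap. The dimmer, 1370382_at, was 6.82, 7.00 and 10.03 in ligated saline livers and 5.79, 6.61 and 7.05 in sham livers. Its groups overlapped and its change of 1.15 ± 0.568 did not pass the test (adjusted p = 0.0896). Only ligated saline rats 2 and 6, at 10.03 and 8.53, stood above the highest sham value for 1370382_at.

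Of the chains of the B molecule, the alpha chain RT1-Ba rose on both kept probe sets. Probe set 1370822_at had 11.46, 12.04 and 13.28 in ligated saline livers and 9.29, 10.73 and 11.52 in sham livers, a change of 1.54 ± 0.430 (adjusted p = 0.00516). Probe set 1377334_at had 9.90, 10.33 and 10.94 in ligated saline livers and 6.64, 9.07 and 9.95 in sham livers, a change of 1.60 ± 0.455 (adjusted p = 0.00585). On both, the lowest ligated saline arrays lay just below the highest sham array, so the groups overlapped at their edges.

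The beta chain RT1-Bb was read by a pair of probe sets that took opposite states in some rats. Probe set 1371033_at was 2.57 and 3.24 in ligated saline rats 1 and 5, below the filter level, and 11.84 to 12.86 in the other four, against 8.36 to 10.64 in sham rats. Probe set 1371065_at was 11.62 and 11.84 in ligated saline rats 1 and 5 and 2.69 to 2.73 in the other four, against 2.87 to 9.68 in sham rats. Thus no ligated saline liver had both probe sets above the filter level, while 2 of 5 ligated ghrelin livers and 4 of 6 sham livers did, and no liver lacked both. Neither probe set passed the test, at -0.51 ± 1.58 (adjusted p = 0.795) for 1371033_at and -0.74 ± 2.07 (adjusted p = 0.773) for 1371065_at.

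Read one probe set at a time, every ligated saline rat exceeded all sham rats on the probe set that was above the filter level in it. On 1371033_at ligated saline rats 2, 3, 4 and 6 had 12.86, 11.91, 11.84 and 12.67, against 10.64 at the highest in sham livers. On 1371065_at ligated saline rats 1 and 5 had 11.62 and 11.84, against 9.68 at the highest in sham livers. These rats were picked by their values, so the comparison was not tested. The log2 of both intensities summed, added after the pattern was seen, was 11.63 to 12.86 in ligated saline and 8.74 to 11.20 in sham livers, and as it mixes probe sets of unknown relative brightness it is given as a description.

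**Figure D1:**
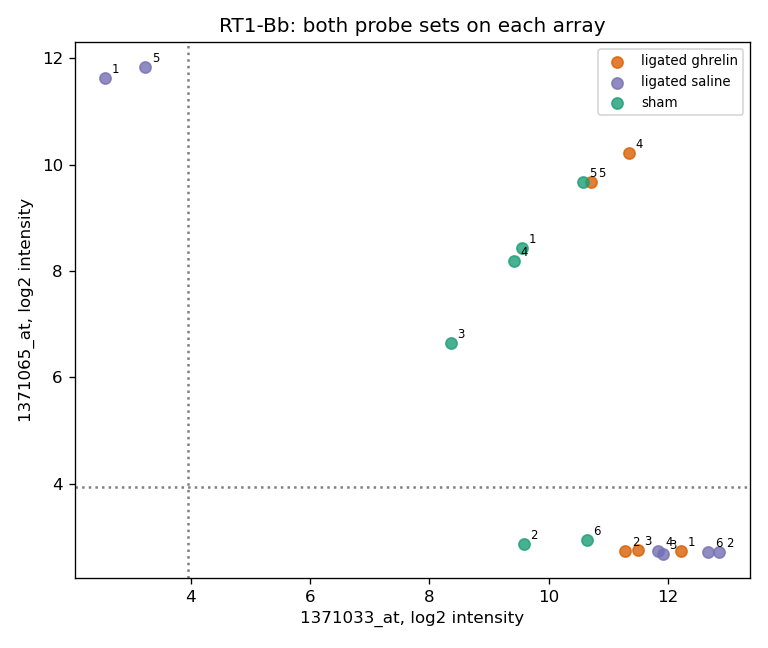
Log2 intensity of RT1-Bb on its probe sets 1371033_at (horizontal) and 1371065_at (vertical), 1 point per rat, coloured by group and labelled with the rat's number, with dotted lines at the filter level of 3.95. Ligated saline rats 1 and 5 sit at the upper left, the other ligated saline rats and ligated ghrelin rats 1, 2 and 3 at the lower right, and most sham rats on the rising line where both are above the level.

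The probe sets of the other polymorphic chains also diverged in particular rats. For RT1-Ba, 1370822_at exceeded 1377334_at by 3.64 and 3.42 in ligated ghrelin rats 4 and 5, by 2.95 in ligated saline rat 2 and by 3.57 in sham rat 3. In the remaining rats this difference was 0.83 to 1.12 in ligated ghrelin, 1.36 to 1.65 in ligated saline and 1.13 to 1.72 in sham livers. For RT1-Db1, the gap between 1370383_s_at and 1370382_at was 2.82, 2.43, 2.95 and 2.22 in those same 4 rats and 2.86 in sham rat 2, and 3.34 to 5.00 in the rest. These rats occur in all 3 groups. Whether sequence differences between rats move with these values was not tested.

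The invariant chain Cd74 had 13.84, 14.30 and 14.50 in ligated saline livers and 11.39, 12.57 and 13.48 in sham livers. Its groups did not overlap, and it rose by 1.76 ± 0.297, or 3.39-fold (adjusted p = 7.62e-05). The DM chains, which load peptide, had the smallest adjusted p-values of the class II probe sets. RT1-DMa had 9.37, 9.77 and 9.97 in ligated saline livers and 6.09, 6.86 and 7.85 in sham livers, a rise of 2.74 ± 0.290 or 6.67-fold (adjusted p = 5.77e-07). RT1-DMb had 10.73, 11.18 and 11.38 in ligated saline livers and 8.42, 8.94 and 9.62 in sham livers, a rise of 2.11 ± 0.203 or 4.33-fold (adjusted p = 2e-07). On both DM chains the lowest ligated saline array exceeded the highest sham array by more than 1 log2 unit.

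**Figure D2:**
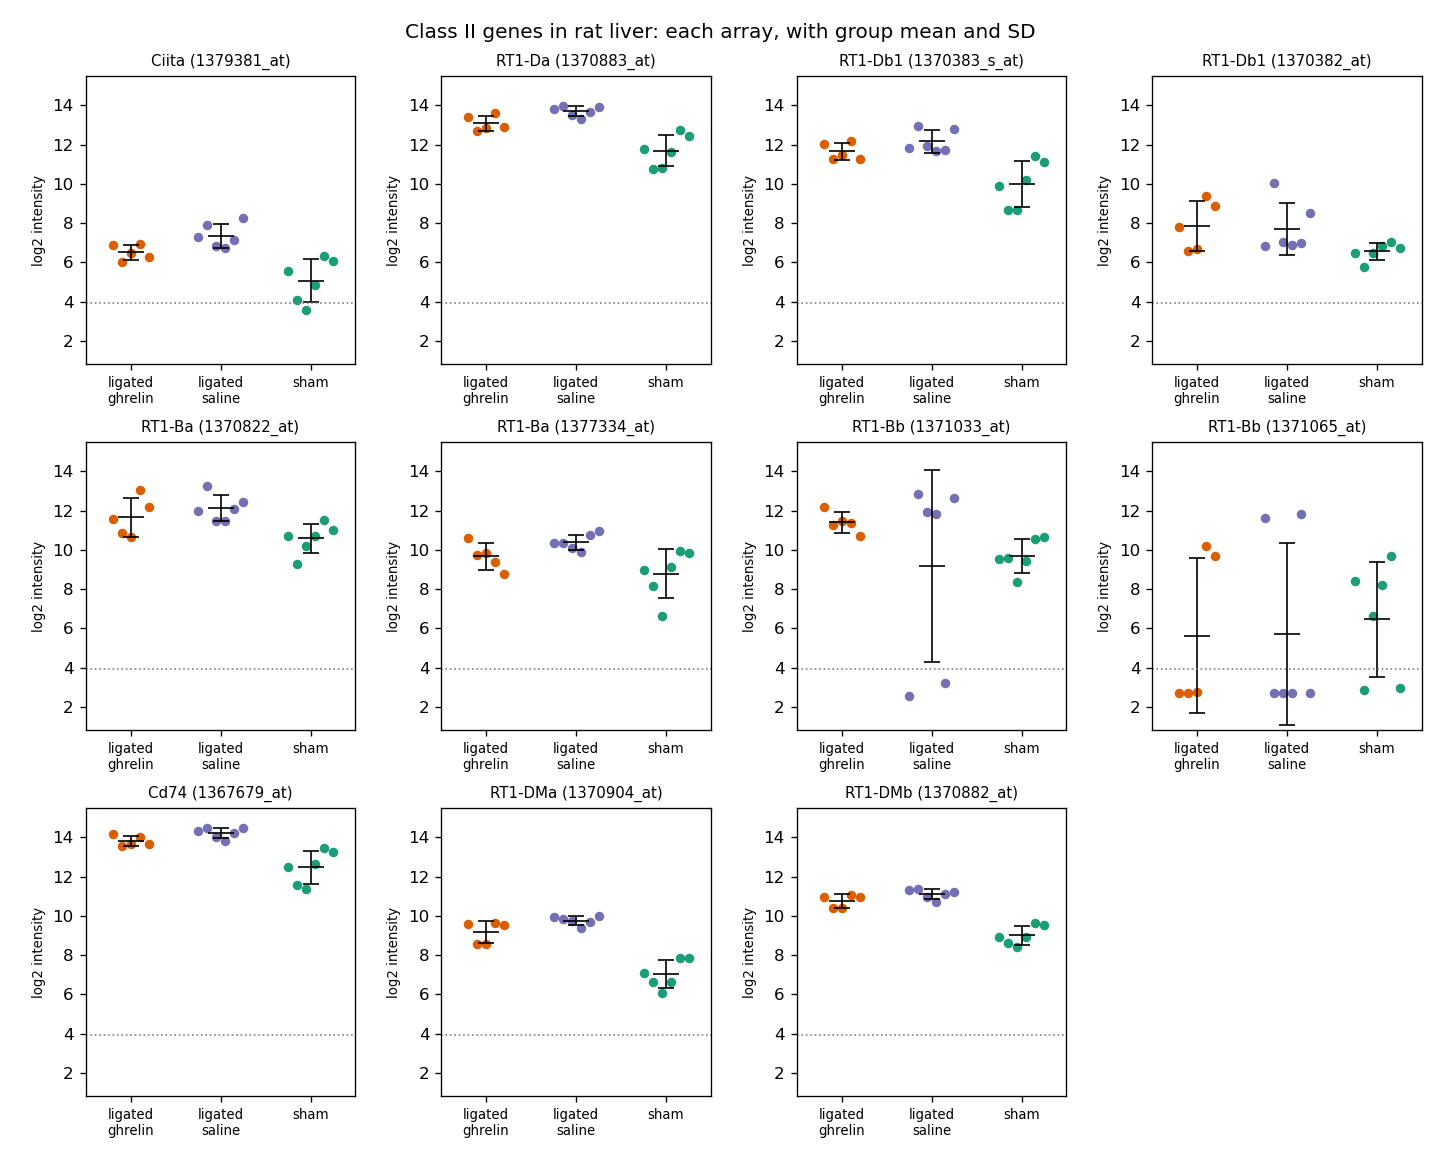
Log2 intensity of the 11 kept class II probe sets on every array, in ligated ghrelin (left), ligated saline (middle) and sham (right) livers, with the group mean and SD in black and the filter level of 3.95 dotted. Ciita, RT1-Da, RT1-Db1 1370383_s_at, Cd74, RT1-DMa and RT1-DMb show ligated saline arrays wholly above sham arrays, while the RT1-Bb probe sets split within groups.

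Rats that were high in 1 class II gene tended to be high in the others. Each gene was read on its kept probe set of the highest mean. Ranked within their group over the 7 genes other than RT1-Bb, sham rats 5 and 6 held the highest 2 places in all 7 genes and sham rats 2 and 3 the lowest 2 places in all 7. Among ligated saline rats, 2 and 6 held one of the highest 2 places in 6 of 7 genes each, and rat 4 one of the lowest 2 in all 7. Among ligated ghrelin rats, rat 4 was in the highest 2 places in all 7 genes and rat 2 in the lowest 2 in all 7. These places did not all hold on the dimmer probe sets. On RT1-Ba 1377334_at ligated ghrelin rat 4 was at 9.40, below the group median of 9.72, which was the value of rat 2. On RT1-Db1 1370382_at sham rat 6, at 6.75, lay below sham rat 4, at 6.84. The spread of Cd74 was 0.269 (SD, n = 6) in ligated saline and 0.851 (SD, n = 6) in sham livers.

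Over the 6 sham rats, Cd74 correlated with each of Ciita, RT1-Da, RT1-Db1, RT1-Ba, RT1-DMa and RT1-DMb at Pearson's r = 0.882 to 0.995 and Spearman's rho = 0.886 to 1. Exact permutation p-values adjusted over 12 relations were 0.0167 to 0.0257 for r and 0.0167 to 0.0400 for rho, and r was 0.835 to 0.999 without the 2 rats farthest from the median of Cd74. Over the 6 ligated saline rats r was 0.761 (RT1-Db1) to 0.992 (RT1-Da) and rho 0.771 (RT1-DMa) to 1 (RT1-Da). RT1-Db1 missed the threshold there on r (exact permutation adjusted p = 0.0903) and on rho (exact permutation adjusted p = 0.0636), as did RT1-DMa on rho (exact permutation adjusted p = 0.103). Without the 2 farthest ligated saline rats r was 0.565 for RT1-DMa and 0.731 to 0.980 for the other five. No correlation was computed over the 5 ligated ghrelin rats, since a minimum of 6 was kept to. These genes share the RNA sample and array of each rat, and each was read on the same probe set as in the ranking.

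**Figure D3:**
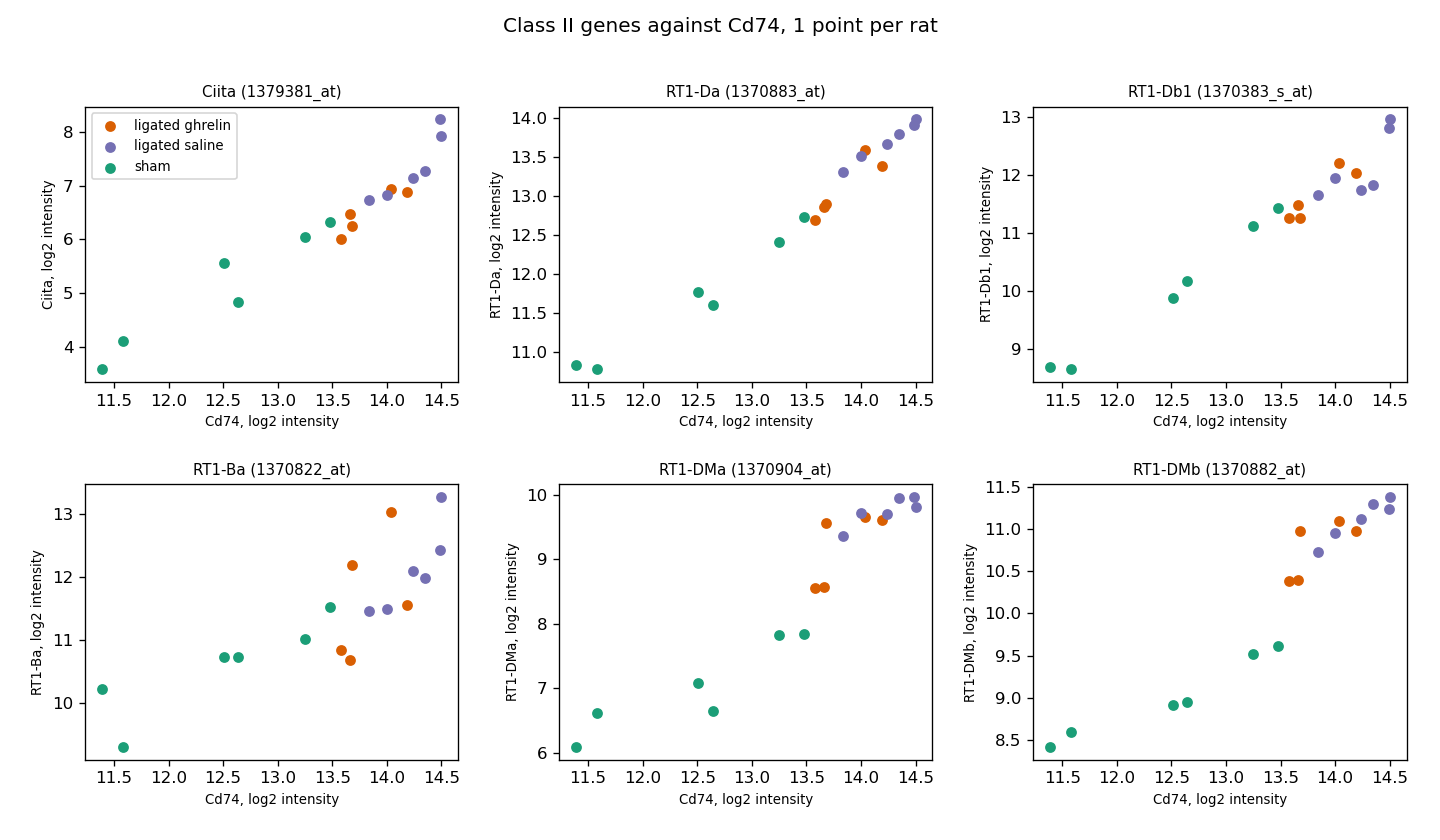
Log2 intensity of 6 class II genes (vertical) against Cd74 (horizontal), 1 point per rat, coloured by group. Within the sham and ligated saline groups the points rise together, and ligated ghrelin rats 4 and 5 lie above the other rats of similar Cd74 for RT1-Ba.

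Likeness to Cd74 was measured as Pearson's r of each gene's deviations from its group means over 17 arrays, ranked over 9735 genes and given as a description. The SD of Cd74 was 0.851 in sham, 0.269 in ligated saline and 0.268 in ligated ghrelin livers, so the sham rats weigh most in this r. The genes ranked 1 to 4 were RT1-Da (r = 0.971), RT1-Db1 (0.949), Ciita (0.934) and RT1-DMb (0.903). RT1-DMa ranked 22 (0.839), RT1-Ba 189 (0.675) and RT1-Bb 3420 (0.127), the last on 1371033_at alone. The 5 most alike outside the class II set were the GTPase-activating protein Arhgap27 (0.893), the haematopoietic signalling adaptor Hcls1 (0.887), the phospholipase Pla1a (0.879), the tyrosine phosphatase Ptpn18 (0.879) and the lipopolysaccharide-binding protein Lbp (0.873). All 5 were also higher in ligated saline than in sham livers, by 1.50, 1.26, 5.00, 1.56 and 2.15 (adjusted p = 4.39e-06, 0.00387, 3.71e-07, 5.74e-07 and 1.24e-06 in that order).

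Average values on most class II probe sets were lower in ligated ghrelin than in ligated saline livers, but none passed the test. These probe sets were read in the same rats and are not independent. Of 11 probe sets 0 were called in ligated ghrelin against ligated saline livers by limma, 0 had an unadjusted p under 0.05, and 9 had an estimate below 0. In this comparison 2.22% of all probe sets were called (355), and 3393 of 15965 had an unadjusted p under 0.05. The number called depended on single rats, from 35 without ligated ghrelin rat 2 to 653 without ligated saline rat 4. The median change was -0.47 for the class II probe sets and -0.02 over all.

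Ciita was 6.88, 6.00, 6.47, 6.94 and 6.25 in ligated ghrelin livers 1 to 5, against 6.73, 7.21 and 8.24 (lowest, median, highest) in ligated saline livers. All 5 ghrelin values lay below the ligated saline mean of 7.35, yet the groups overlapped. The change was -0.85, with a 95% interval of -1.77 to 0.08 (adjusted p = 0.276). RT1-Da was 13.39, 12.69, 12.86, 13.60 and 12.90 in ligated ghrelin livers, against 13.31, 13.74 and 13.99 in ligated saline livers. Its change of -0.62 had an interval of -1.26 to 0.03 (adjusted p = 0.260, the lowest of the 11).

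Cd74 was 14.19, 13.58, 13.66, 14.04 and 13.68 in ligated ghrelin livers, against 13.84, 14.30 and 14.50 in ligated saline livers, a change of -0.41 (interval -1.07 to 0.25). RT1-DMa was 9.61, 8.56, 8.57, 9.65 and 9.56 in ligated ghrelin livers, against 9.37, 9.77 and 9.97 in ligated saline livers, a change of -0.57 (interval -1.21 to 0.08). RT1-DMb was 10.98, 10.38, 10.40, 11.09 and 10.97 in ligated ghrelin livers, against 10.73, 11.18 and 11.38 in ligated saline livers, a change of -0.36 (interval -0.81 to 0.09). On these genes ghrelin rats 2 and 3 lay below every ligated saline rat and rats 1 and 4 within their range. Rat 5 was below every ligated saline rat for Cd74 and within their range for both DM chains.

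RT1-Ba averaged 11.66 ± 0.982 in ligated ghrelin livers (SD, n = 5) and 12.13 ± 0.676 in ligated saline livers (SD, n = 6) on 1370822_at, a change of -0.47 (interval -1.42 to 0.48). Its 1377334_at changed by -0.72 (interval -1.73 to 0.29). RT1-Db1 changed by -0.51 (interval -1.47 to 0.46) on 1370383_s_at and by 0.15 (interval -1.11 to 1.40) on 1370382_at. RT1-Bb 1371033_at was 12.21, 11.28, 11.49, 11.35 and 10.71 in ligated ghrelin livers, against 11.84 to 12.86 in the 4 ligated saline livers where it was above the filter level. Over all rats it changed by 2.23 (interval -1.28 to 5.73), and 1371065_at by -0.10 (interval -4.70 to 4.50). The intervals of all 11 class II probe sets include 0, and all but that of RT1-DMb extend below -1, a halving.

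**Figure D4:**
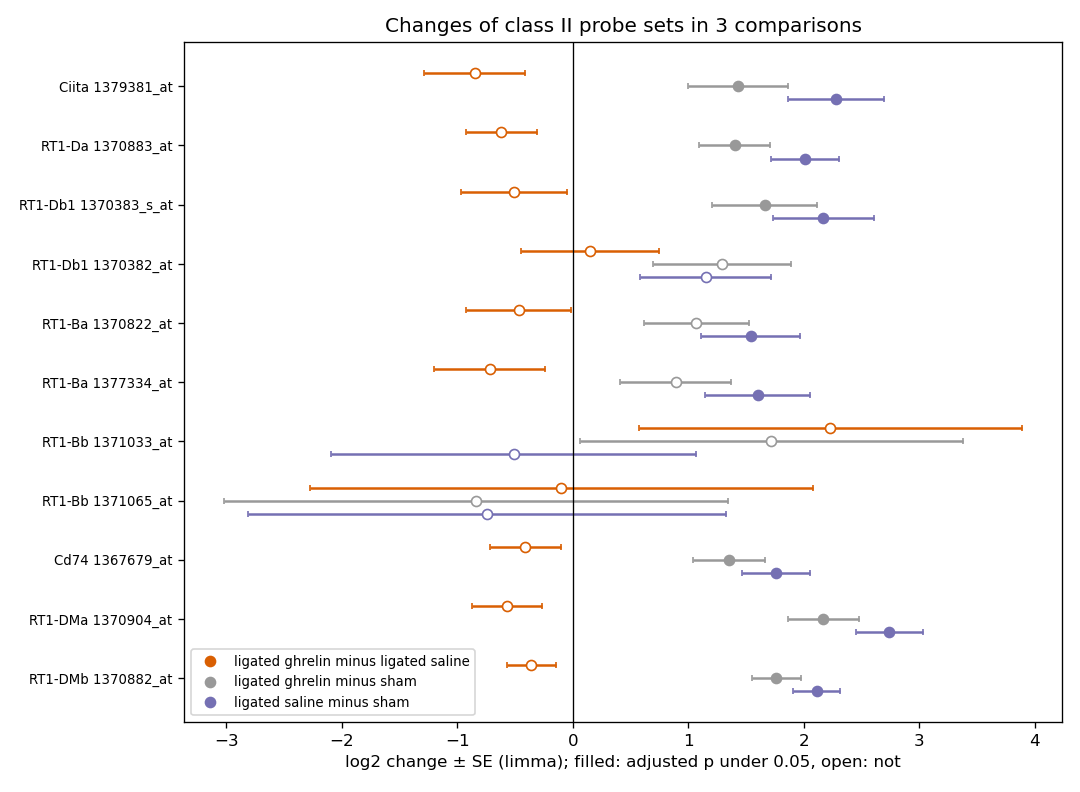
Log2 change with its SE for the 11 kept class II probe sets in ligated ghrelin against ligated saline (orange), ligated ghrelin against sham (grey) and ligated saline against sham (purple) livers, with filled points where the adjusted p is under 0.05. All orange points are open, 9 of them left of 0, while 8 purple and 6 grey points are filled right of 0.

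Against sham livers, ligated ghrelin livers had 6 of the 11 class II probe sets called, all 6 higher, where 53.5% of all probe sets were called and 29.9% were called higher. This comparison holds ligation and ghrelin together and shares rats with both others. RT1-DMa was higher by 2.17 ± 0.304, RT1-DMb by 1.76 ± 0.213, RT1-Db1 (1370383_s_at) by 1.66 ± 0.457, Ciita by 1.43 ± 0.437, RT1-Da by 1.40 ± 0.307 and Cd74 by 1.35 ± 0.311. RT1-Ba had 1.07 ± 0.451 (adjusted p = 0.0544) and 0.89 ± 0.478 (adjusted p = 0.129), and RT1-Db1 1370382_at had 1.29 ± 0.595 (adjusted p = 0.0777). RT1-Ba 1370822_at passed when ligated ghrelin rat 2 or 3, ligated saline rat 2 or sham rat 5 was left out (lowest adjusted p 0.0218), and RT1-Db1 1370382_at when ligated ghrelin rat 2 or 3 or ligated saline rat 2 was (lowest adjusted p 0.0301). Both also passed with array weights, the first with quantile normalization and the second when only these 2 groups were fitted. RT1-Bb 1371033_at had 1.72 ± 1.66 (adjusted p = 0.400), or an adjusted p of 0.00336 when only these 2 groups were fitted, and 1371065_at had -0.84 ± 2.18 (adjusted p = 0.765).

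The factors that Ciita docks on did not move together. Of the 7 genes of the RFX, NF-Y and CREB complex, 3 rose (Rfx5, Nfya, Creb1) and 3 were called lower (Rfxap, Nfyb, Rfxank) in ligated saline against sham livers, with a median change of -0.10. Rfxank lay close to the filter level, at 4.18 to 4.19 in ligated ghrelin, 3.96 to 4.18 in ligated saline and 4.20 to 4.66 in sham livers, so its call is not read as a fall. Over all genes 37.5% rose and 27.2% fell, with a median of 0.07. Rfx5, the RFX subunit that contacts DNA, averaged 9.07 ± 0.209 in ligated saline and 7.51 ± 0.295 in sham livers (SD, n = 6 each), a change of 1.56 ± 0.135 (adjusted p = 6.41e-08). Rfxap, a further RFX subunit, changed by -0.52 ± 0.0815 (adjusted p = 3.54e-05) and Nfyb, a histone-fold subunit of NF-Y, by -1.08 ± 0.189 (adjusted p = 0.000106). None of the 7 was called in ligated ghrelin against ligated saline livers, with Rfx5 at -0.12 ± 0.142 (adjusted p = 0.657).

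Of 16 genes that act on Ciita expression, mostly of the interferon gamma pathway, 9 were kept, and 7 of these rose and none fell in ligated saline livers (median change 1.07). They were both chains of the interferon gamma receptor (Ifngr1, Ifngr2), the kinases Jak1 and Jak2, the factors Irf1 and Irf8, and Il10ra. Irf1, an interferon-induced activator, averaged 9.59 ± 0.354 in ligated saline and 8.03 ± 0.527 in sham livers, a change of 1.56 ± 0.213 (adjusted p = 8.82e-06). Irf8, a factor of macrophages and dendritic cells, rose by 1.07 ± 0.193 (adjusted p = 0.000144, limma) and Il10ra, a receptor chain for interleukin 10, by 1.90 ± 0.256 (adjusted p = 7.58e-06, limma). Il10ra was 3.69 to 5.41 in sham livers, with the lowest arrays under the filter level, so the size of its change is not read. The interferon itself, Ifng, and Socs1, Socs3 and Il10 did not pass the filter on low values, and Irf4 and Spi1 had no probe set listed to them alone.

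Jak2 was the only one of these 9 called in ligated ghrelin against ligated saline livers. It was 6.91, 6.69, 6.77, 7.07 and 7.09 in ligated ghrelin livers, against 7.17, 7.33 and 7.78 in ligated saline livers, with no overlap. It fell by 0.49 on the log2 scale, as a change of -0.49 ± 0.117 (adjusted p = 0.0430), and was singled out after its values were seen. That call was lost in 17 of 24 alternatives, with adjusted p-values from 0.0322 to 0.125. Irf8 changed by -0.65 ± 0.202 (adjusted p = 0.0841) and Irf1 by -0.42 ± 0.223 (adjusted p = 0.291). Irf8 passed without sham rat 3 (adjusted p = 0.0471).

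Genes of the endosomal route, where class II molecules meet their peptides, were higher in ligated saline than in sham livers for 13 of 16, with 1 lower (median change 0.77). Legumain (Lgmn), an endosomal protease, rose by 1.71 ± 0.110 (adjusted p = 2.6e-09), the thiol reductase Ifi30 by 1.52 ± 0.0953 (adjusted p = 2.2e-09) and cathepsin S (Ctss), which trims the invariant chain, by 1.31 ± 0.158 (adjusted p = 2.53e-06). Cd63, a tetraspanin of late endosomes, rose by 1.86 ± 0.166 (adjusted p = 8.99e-08). The cathepsins Ctsb and Ctsl rose by 0.64 ± 0.0671 and 0.61 ± 0.0567, and their inhibitor cystatin C (Cst3) by 1.06 ± 0.136. Ctsc fell, and Ctsh, at 0.02 ± 0.0918, was not called, with its sign negative when array medians were set equal or sham rat 5 was left out. None of the 16 was called in ligated ghrelin against ligated saline livers, where Lgmn had -0.37 ± 0.115 (adjusted p = 0.0830).

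Class II engages T cells together with costimulatory ligands, of which 3 of 9 listed genes were kept. Cd86 averaged 7.50 ± 0.244 in ligated saline and 5.15 ± 0.392 in sham livers, a rise of 2.36 ± 0.165 (adjusted p = 6.7e-09), and Cd83, a marker of activated antigen-presenting cells, rose by 1.70 ± 0.247 (adjusted p = 1.73e-05). Icoslg, the ligand of the T cell receptor Icos, changed by -0.92 ± 0.180 (adjusted p = 0.000327), the direction opposite to both. Icoslg was higher in ligated ghrelin than in ligated saline livers by 0.81 ± 0.189 (adjusted p = 0.0414, lost in 13 of 24 alternatives), and Cd86 had -0.44 ± 0.173 (adjusted p = 0.158). Cd80 and Cd40 did not pass the filter.

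On the side of the T cell, Cd4, the coreceptor for class II, rose by 1.10 ± 0.290 (adjusted p = 0.00343). Lck and Icos were also called higher, by 1.34 ± 0.364 and 1.20 ± 0.286, which made 3 of 4 kept genes. Lck was 2.67 to 5.15 in sham and 5.08 to 6.58 in ligated saline livers. Icos was 2.76 to 4.54 in sham and 4.34 to 5.27 in ligated saline livers, close to the filter level. For both genes the groups overlapped and the lowest sham arrays lay under the filter level. The size of these changes is therefore not read. Cd4 is also carried by rat macrophages. The T cell receptor chain Cd3e had 0.14 ± 0.281 (adjusted p = 0.686), with a negative sign under both other scalings and without ligated saline rat 6, and 8 further T cell genes such as Cd3d, Cd3g and Cd28 did not pass the filter.

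Genes of class I presentation, the parallel route to CD8+ T cells, rose in 10 of 13 and fell in 1 (median change 0.60). Of those inside the class II gene run on chromosome 20, Tap1, a subunit of the peptide transporter, rose by 1.11 ± 0.198 (adjusted p = 0.000128) and the immunoproteasome subunit Psmb9 by 1.14 ± 0.148 (adjusted p = 5.49e-06). Its neighbour Psmb8 rose by 0.34 ± 0.122 (adjusted p = 0.0248), a call lost without ligated saline rat 2, ligated saline rat 6 or sham rat 4 and with array medians set equal (highest adjusted p 0.314), and Tap2 was also called higher. B2m, the light chain of class I, was higher by 0.18 ± 0.0535 (adjusted p = 0.00800), or -0.01 with array medians set equal. Nlrc5, the coactivator of class I genes, had 0.04 ± 0.130 (adjusted p = 0.801), and -0.34 with quantile normalization (adjusted p = 0.0364). No class I gene was called in ligated ghrelin against ligated saline livers.

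**Figure D5:**
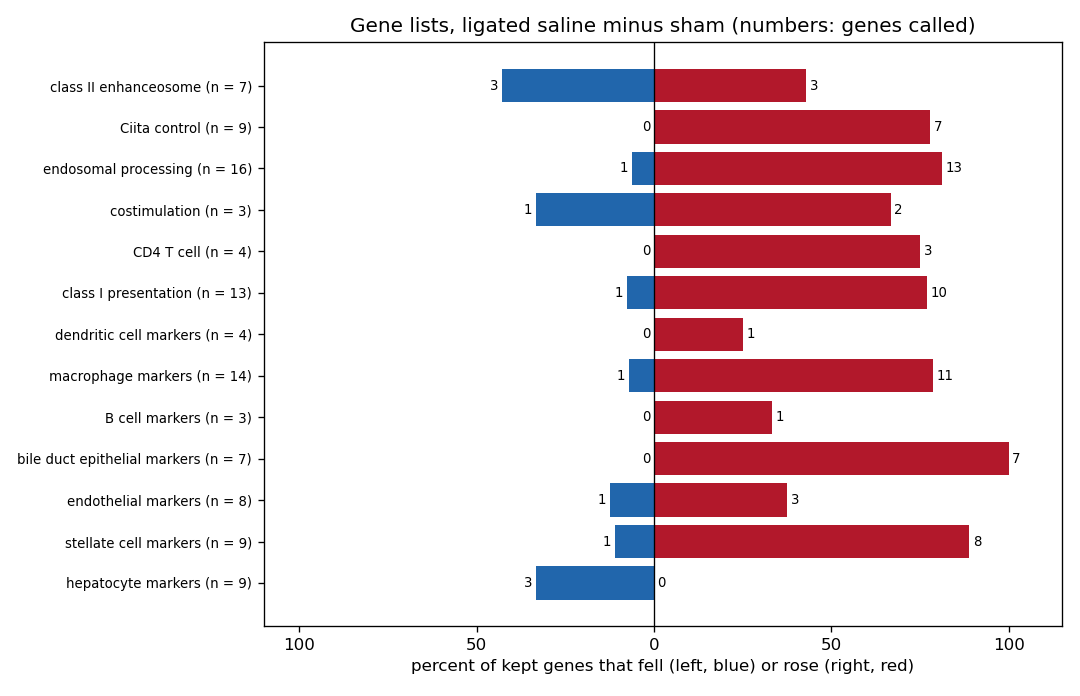
Percent of the kept genes of each list that rose (right) or fell (left) in ligated saline against sham livers, with the number of genes called beside each bar and the number kept after each name. Endosomal processing (13 of 16 rose, 1 fell), macrophage (11 of 14 rose, 1 fell), class I (10 of 13 rose, 1 fell) and stellate cell (8 of 9 rose, 1 fell) lists lie mostly to the right. The bile duct (7 of 7 rose), Ciita control (7 of 9), CD4 T cell (3 of 4), dendritic cell (1 of 4) and B cell (1 of 3) lists held no gene that fell. The complex that Ciita docks on has 3 genes on each side, its left bar holding Rfxank near the filter level.

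Among markers of cells that can carry class II, 11 of 14 kept macrophage markers rose and 1 fell in ligated saline against sham livers, and their summed intensity was 26000 to 37100 in ligated ghrelin, 32100 to 47300 in ligated saline and 13600 to 22500 in sham livers. Cd68 rose by 1.25 ± 0.204, Csf1r by 1.15 ± 0.203, Cd163 by 0.89 ± 0.143 and Lyz2 by 1.89 ± 0.216, while Cd14 fell. Their part in the class II changes was not tested.

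Of 4 kept dendritic cell markers 1 rose, Itgax (CD11c) by 1.93 ± 0.227 (adjusted p = 1.84e-06), and the sum over the list was 2740 to 6420 in ligated ghrelin, 4140 to 4730 in ligated saline and 2900 to 5830 in sham livers. In ligated ghrelin against ligated saline livers Itgax had -0.79 ± 0.238 (adjusted p = 0.0785). The narrower dendritic markers Flt3, Clec9a and Batf3 and the chemokines Ccl17 and Ccl22 did not pass the filter, and Ccr7 had no probe set listed to it alone. Of 3 kept B cell genes 1 rose, the adaptor Blnk by 3.12 ± 0.206 (adjusted p = 3.6e-09, limma). Blnk was 3.59 to 4.13 in sham and 6.32 to 7.84 in ligated saline livers. Its sham values lay at or under the filter level, so the size of its change is not read. The B cell list summed to 298 to 365 in ligated ghrelin, 288 to 414 in ligated saline and 203 to 264 in sham livers. The dendritic sums in ligated saline livers lay inside the range of sham livers. Such sums add linear intensities and are set by the brightest genes of a list. Itgax, at log2 values of 6.04 to 7.79 in ligated saline livers, adds little to the dendritic sum, which therefore cannot show its rise. The defining B cell markers Ms4a1 (CD20) and Cd79b did not pass the filter. Of 8 kept endothelial markers 3 rose and 1 fell, with sums of 4040 to 6120 in ligated ghrelin, 4650 to 6190 in ligated saline and 4800 to 6180 in sham livers, which overlapped. Over all genes 37.5% rose and 27.2% fell in ligated saline against sham livers. The counts of dendritic, B cell and endothelial markers that rose are not above that general share.

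Hepatocyte markers were present on every array. Albumin (Alb) averaged 15.85 ± 0.0456 in ligated ghrelin (SD, n = 5), 15.84 ± 0.0299 in ligated saline and 15.88 ± 0.0397 in sham livers (SD, n = 6 each), close to the highest value in the table (15.92). It changed by -0.05 in ligated saline against sham livers (adjusted p = 0.445), and by -0.23 with array medians set equal (adjusted p = 0.00127). Of 9 kept hepatocyte genes 0 rose and 3 fell in ligated saline livers (Apoa2, Ttr and Hnf4a), where 27.2% of all genes fell. The list summed to 251000 to 279000 in ligated ghrelin, 233000 to 263000 in ligated saline and 266000 to 285000 in sham livers. All 7 kept bile duct markers rose, with Krt19 higher by 5.03 ± 0.493, and summed to 7090 to 11500 in ligated ghrelin, 5810 to 18300 in ligated saline and 364 to 711 in sham livers. Krt19 was 3.69 to 6.66 in sham livers, with the lowest arrays under the filter level, so the size of its change is not read. Of 9 stellate cell markers 8 rose and 1 fell, with Col1a1 higher by 4.64 ± 0.289. In ligated ghrelin against ligated saline livers, of the cell type lists only this one had calls, both lower and named after their values were seen. Col3a1, a fibrillar collagen, changed by -0.68 ± 0.145 (adjusted p = 0.0342, lost in 8 of 24 alternatives) and Rgs5, a regulator of G protein signalling, by -0.70 ± 0.158 (adjusted p = 0.0389, lost in 10 of 24). The stellate markers summed to 15400 to 20600 in ligated ghrelin, 18700 to 34500 in ligated saline and 4100 to 5570 in sham livers. The part of these cell types in the class II values was not tested.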

How the data were processed

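The authors deposited 1 table of probe set intensity values, made with GCRMA per the submitters' processing notes. GCRMA's version and settings were not stated in the sources used here. These deposited intensities were linear (lowest 2.14) and were turned into log2 values without a pseudocount. GCRMA estimates background from probe sequence, which gives dim probe sets a floor at which differences are not measured. Every column mapped to 1 rat. Of 31099 probe sets 57 controls were left out. Gene names came from the platform annotation (20826 probe sets with 1 symbol, 436 with several, 9780 with none listed), of which 20758 were matched to RefSeq by gene identifier, with 0 symbols changed.

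Group means of all 17 arrays were fitted with limma 3.58.1 (lmFit, eBayes) in R 4.3.3 without covariates, with 14 residual and 2.54 prior degrees of freedom. P-values were adjusted by Benjamini-Hochberg over 15965 kept probe sets and called under 0.05. The procedure was tested on simulated data. A gene of a list is its kept probe set of the highest mean. The labels give no batch or date, and the number of arrays limits the precision.

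The class II genes, the gene lists and the promoter motifs were chosen with earlier results of these data known. Named genes are all class II probe sets, fixed genes per list, the 2 called genes of each list with the largest ligation change and the 5 genes most like Cd74. Exceptions are Jak2, Icoslg, Col3a1, Rgs5, Rfxap and genes making up a small count.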

Additional observations from a re-analysis of the deposited data

How the results depend on the processing

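Of the 11 class II probe sets, 8 were called higher in ligated saline than in sham livers whichever single rat was left out, and with quantile normalization, equal array medians, no filter, array weights, an intensity trend and fits of only the compared groups. A filter met on all 17 arrays left Ciita and both RT1-Bb probe sets untested and called 7. None was called in ligated ghrelin against ligated saline livers under any of these. No paired analysis was possible because the labels give no pairing of rats between the groups. The number of all probe sets called in ligated saline against sham livers was 9825, with 9215 to 10039 leaving out 1 rat and 22230 of 31042 with no filter. In ligated ghrelin against sham livers it was 8534, with 7805 to 8606 leaving out 1 rat and 19914 with no filter. In ligated ghrelin against ligated saline livers it was 355, with 35 to 653 leaving out 1 rat, 154 with no filter, 118 with only these 2 groups fitted, 542 with quantile normalization and 611 with equal medians. It moved by over 1.5 times whichever rat was left out, except ligated saline 2, sham 3 and sham 4. The higher share of calls was 55.7% in ligated saline against sham livers, 42.0% with quantile normalization, 39.0% with equal medians and 27.1% with no filter. In ligated ghrelin against sham livers these shares were 56.0%, 43.8%, 43.1% and 25.7%, and in ligated ghrelin against ligated saline livers 59.2%, 67.3%, 80.4% and 65.6%. Some changes turned sign between settings. RT1-Bb 1371033_at, at -0.51 in ligated saline against sham livers, ranged from -1.24 to 0.81 leaving out 1 rat, and gave 2.09 with both probe sets summed and 2.43 with the brighter, which mix probe sets and are not read as tests. In ligated ghrelin against ligated saline livers the same probe set was 2.23, against -0.49 summed and -0.71 with the brighter. RT1-Bb 1371065_at was -0.10 there, 0.07 with array weights and -1.25 to 1.12 leaving out 1 rat, and RT1-Db1 1370382_at was 0.15 and -0.24 to 0.61. In ligated saline against sham livers equal medians and quantile normalization gave Cd3e -0.05 and -0.21 (-0.16 to 0.29 leaving out 1 rat) and Nlrc5 -0.15 and -0.34 (-0.06 to 0.09). Equal medians gave Ctsh -0.17 (-0.04 to 0.08 leaving out 1 rat) and B2m -0.01. Beyond the construction of these settings the cause was not tested.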
